A study of Saccharomyces cerevisiae with 6 samples.

Results

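The comparison set cells of Saccharomyces cerevisiae lacking CCR4 against wild-type cells, both grown in YPD medium into stationary phase, across all genes of a 1-colour Agilent yeast array. The series held 6 arrays, 1 for each of 6 conditions, with log and stationary cultures of the wild-type strain, the ccr4Δ strain and the double mutant ccr4Δ pbp1Δ. The comparison used 2 of these arrays. With 1 array per condition, no test was possible, no p-value is given, and no difference could be set against the spread between cultures. The array labels give the genotype at CCR4 and PBP1 and not the strain names. For the wild-type and ccr4Δ arrays, what follows assumes the strains of those genotypes in the study's strain list. The list holds no ccr4Δ pbp1Δ strain, so the mating type and markers of the double mutant are not known here. The listed wild-type and ccr4Δ strains were haploid derivatives of W303 that carried the alleles ade2, trp1, can1, leu2, his3 and ura3. In that list, the wild-type strain was MATα and carried ADE2 behind the HO promoter, and the ccr4Δ strain was MATa, with CCR4 replaced by the Candida glabrata LEU2 gene, so mating type, these markers and the deletion of CCR4 cannot be told apart. Genes of mating type, the altered loci and the CLB and CLN cyclins, 67 genes in all, were set aside.

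The Ccr4-Not complex, in which Ccr4 acts as a deadenylase, shortens the poly(A) tails of mRNAs in the cytoplasm. A shortened tail exposes an mRNA to removal of its cap and to decay. When glucose is used up, yeast cells take up the ethanol that they made, respire, store glycogen and trehalose, make fewer ribosomes and leave the cell cycle for stationary phase. Which mRNAs are present then depends on transcription and on decay, and a microarray of total RNA reads the level of each mRNA and not its half-life. In bulk RNA of this kind, fewer cells of a state and less RNA per cell cannot be told apart.

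Of 6225 genes on the array, 6034 had a signal well above background on both stationary phase arrays. Values below are scaled signals, in which the 75th percentile of each array stands at 10000, so the ratio of 2 scaled signals of a gene is its fold difference. The ratio is also given as log2 of ccr4Δ over wild-type, where 1 is a 2-fold higher and -1 a 2-fold lower level in ccr4Δ cells. Both arrays carried 2 spots per probe, and the SD of a log2 ratio from the spots was 0.117, which covers the array and not the culture. The 2 arrays lay on the same slide. CCR4 itself had a scaled signal of 1826 in wild-type cells and was not well above background in ccr4Δ cells, at least 134-fold lower. The growth phase labels were checked with median log2 levels relative to the 75th percentile. Ribosomal proteins of the large subunit stood between 3.52 and 4.07 on the 3 log phase arrays and between 0.09 and 0.95 on the 3 stationary phase arrays, and genes known from stationary phase between -2.53 and -0.70 and between 1.54 and 2.02.

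At least 2-fold higher levels in the ccr4Δ mutant were found for 694 genes, 11.5% of those measured, and at least 2-fold lower levels for 942 genes, 15.6%. These percentages are the background for every count of genes below. Among the genes past 2-fold, 42.4% were higher with this scaling, 16.6% (340 higher and 1712 lower) with no scaling, and 1.41% (58 higher and 4063 lower) when ACT1, itself 2.5-fold higher in ccr4Δ cells, was the reference. The median log2 ratio of all genes was -0.08, and it was -0.48 with no scaling and -1.41 with ACT1 as the reference. The middle 50% of genes lay between -0.69 and 0.52. At least 8-fold differences were found for 16 genes that were higher and 26 that were lower. Counts over all measured genes, here and below, include the set-aside genes. Of the 47 measured mating-type genes, 15 were at least 2-fold higher and 14 at least 2-fold lower.

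**Figure D1:**
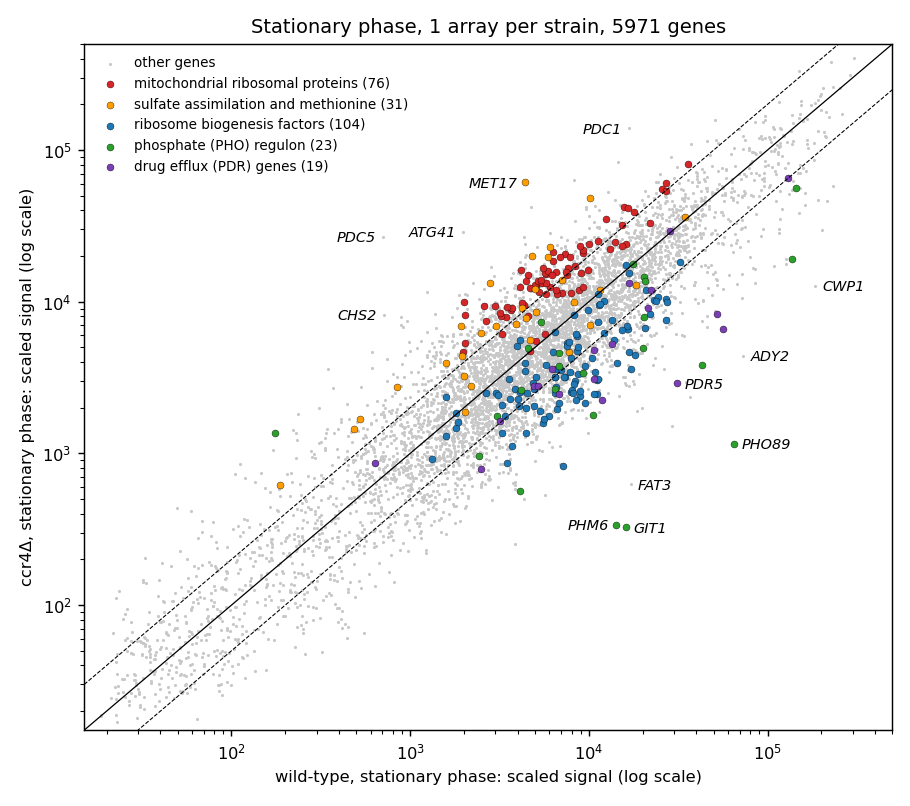
Scaled signal of 5971 genes in wild-type (x axis) and ccr4Δ cells (y axis) in stationary phase, on log scales, 1 array each, with the set-aside genes left out. The solid line marks equal levels and the dashed lines 2-fold differences. Mitochondrial ribosomal protein genes lie above the diagonal, and ribosome biogenesis, phosphate and drug efflux genes mostly below it.

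Longer genes had lower ratios. Genes were put into 5 classes of equal size. In the shortest class the median log2 ratio was 0.03, and in the longest class, from 2118 bases, it was -0.47, with 43 genes at least 2-fold higher and 247 at least 2-fold lower. By wild-type signal, the median went from 0.11 in the dimmest class to -0.30 in the brightest class. The wild-type signal is also the denominator of the ratio, so a fall toward the brightest class can come from the sorting alone. The part of length and of signal in the differences below was not tested, and a list's median after subtracting the median of each gene's own length class is given where it lies clearly closer to 0.

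84 lists of genes of 1 function, holding 2240 genes, were described. The median ratio lay between -0.5 and 0.5 in 59 of them. It was at 1 or more in 4 lists (mitochondrial ribosomal proteins, sulfate assimilation and methionine, actin cytoskeleton, and mitochondrial translation factors and tRNA synthetases) and at -1 or less in 5 (phosphate regulon, drug efflux, nitrogen catabolite genes, pyrimidine biosynthesis and ribosome biogenesis). With ACT1 as the reference the medians of the first 4 lay between -0.29 and -0.09, the median of each of the 84 lists lay below 0, and each gene named below as less than 2.5-fold higher was lower.

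**Figure D2:**
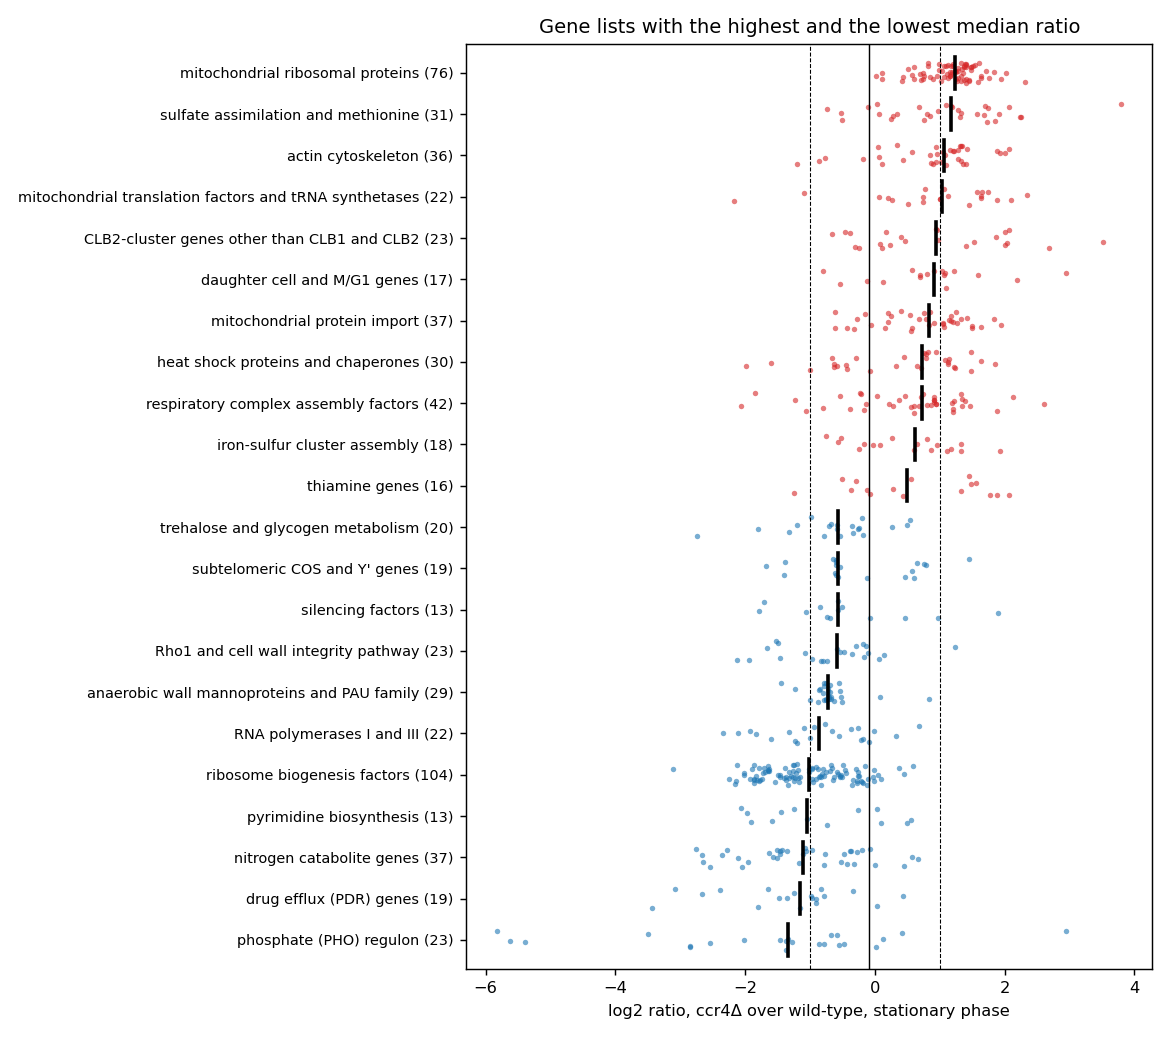
Log2 ratio of ccr4Δ over wild-type in stationary phase for each member (points) of the 11 lists with the lowest and the 11 with the highest median among those of the 84 lists with at least 10 measured genes, whose number stands in parentheses. Thick bars are medians, the solid line is the median of all genes and dashed lines mark 2-fold. The medians run from -1.33 in the phosphate regulon to 1.23 in mitochondrial ribosomal proteins.

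The largest ratio of any gene outside the set-aside lists was that of PDC5, a pyruvate decarboxylase isozyme that makes acetaldehyde from pyruvate in ethanol fermentation. Its scaled signal was 703 in wild-type and 26840 in ccr4Δ cells, a 38.2-fold higher level, and the 2 spots gave log2 ratios of 5.27 and 5.24. PDC1, the major isozyme, stood at 16880 and 139200, 8.25-fold higher. The difference was not shared along the whole pathway. Of 21 glycolytic and fermentative genes, 6 were at least 2-fold higher and 1 was at least 2-fold lower, with a median of 0.12.

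The 6 higher genes encoded phosphoglycerate kinase, enolase and pyruvate decarboxylase. PGK1, phosphoglycerate kinase, was 4.12-fold higher (12760 in wild-type and 52520 in ccr4Δ cells). The enolase genes ENO2 and ENO1 were 4.11-fold and 3.15-fold higher. PDC6, the minor pyruvate decarboxylase, was 2.11-fold higher at a low level, 325 and 685. In contrast, FBA1 (aldolase), TDH1 (a glyceraldehyde-3-phosphate dehydrogenase) and ADH1 (the fermentative alcohol dehydrogenase) had log2 ratios of -0.01, 0.01 and 0.12. HXK2, the main hexokinase of growth on glucose, had -0.94, and PYK2, a second pyruvate kinase, was 2.24-fold lower.

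Genes for the use of ethanol and acetate showed the reverse pattern in part. ADY2, an acetate and ammonium transporter, had 73180 in wild-type and 4412 in ccr4Δ cells, 16.6-fold lower. ADH2, the alcohol dehydrogenase that consumes ethanol, was 6.7-fold lower (127200 and 18990), and SIP4, an activator of gluconeogenic genes, was 4.44-fold lower. ACS1, acetyl-CoA synthetase, and MDH2, cytosolic malate dehydrogenase, were 2.62-fold and 2.51-fold lower. Not all genes of the glyoxylate cycle and gluconeogenesis were lower. ICL1 (isocitrate lyase) had 227800 in wild-type and 380400 in ccr4Δ cells, MLS1 (malate synthase) had 84770 and 153500, and PCK1 (phosphoenolpyruvate carboxykinase) had 197100 and 227600. Of the 19 genes of this list, 13 were below 0, and 5 were at least 2-fold lower and 0 at least 2-fold higher. The median was -0.52, or -0.37 relative to genes of the same length class.

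Storage carbohydrate genes past 2-fold were lower, in a share near that of all genes, 4 of 20 trehalose and glycogen genes with 0 higher. The median was -0.56, or -0.16 by length class. GAC1, which targets protein phosphatase 1 to glycogen synthase, was 6.69-fold lower, from 45910 to 6862. The glycogenin gene GLG2 and the glycogen synthase gene GSY2 were 3.48-fold and 2.51-fold lower, while GSY1, the other glycogen synthase gene, had a log2 ratio of 0.55. Among 21 genes known from stationary phase and desiccation, 6 were at least 2-fold lower and 2 higher. SPG4, required for survival at high temperature in stationary phase, was 5.86-fold lower (50680 and 8646), and DDR2, a multistress gene, was 3.81-fold lower. RTC3 and HSP26, a small heat shock protein, were on the other side, with log2 ratios of 2.32 and 0.83.

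Hexose transporters split by member. HXT6 and HXT7, near-identical high-affinity transporters whose probes may share signal, were 4.08-fold and 3.97-fold lower in the ccr4Δ mutant, and HXT5, the transporter of slow growth, was 4.01-fold lower. HXT13, HXT15, HXT16 and HXT17, which are also close copies of each other and gave low signal on both arrays, had log2 ratios between 2.80 and 3.13. HXT17, the brightest of the 4, had 236 in wild-type and 1812 in ccr4Δ cells.

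Mitochondrial ribosomal proteins, which translate the few proteins that mitochondria encode, had the highest median of the 84 lists, 1.23. Each of the 76 members was above 0, from 0.02 to 2.31, and 55 were at least 2-fold higher, against 11.5% of all genes. MRPL32, of the large subunit, had 2012 in wild-type and 9999 in ccr4Δ cells, 4.97-fold higher. MRPL4 and MRP13 were 4.08-fold and 3.83-fold higher, and the lowest ratios were those of EHD3 (0.02), MRP20 (0.11) and RSM22 (0.12). The genes were short, with a median of 690 bases against 1236 over all genes. Of 22 mitochondrial translation factors and tRNA synthetases, 13 were at least 2-fold higher and 2 lower. MSF1, the mitochondrial phenylalanyl-tRNA synthetase, was 5.09-fold higher (1236 and 6293), and FMT1, the methionyl-tRNA formyltransferase, was 4.52-fold lower (414 and 91.6). PET112, a subunit of the enzyme that makes glutaminyl-tRNA in mitochondria, stood outside the list. It ranked 5 from the top of the genes not set aside, from 347 to 3617, 10.4-fold.

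The import machinery of mitochondria followed, with 16 of 37 genes at least 2-fold higher, 0 lower and a median of 0.83. TOM5, a small subunit of the outer membrane translocase, was 3.84-fold higher (1441 and 5535), TIM8 was 3.57-fold higher, and the 2 subunits of the presequence peptidase, MAS1 and MAS2, were 2.83-fold and 3.12-fold higher. TIM23, the channel of the inner membrane, had a log2 ratio of -0.61. Among 42 assembly factors of the respiratory complexes, 12 were at least 2-fold higher and 4 lower. PET117 and COX17, the latter a copper carrier for cytochrome c oxidase, were 6.09-fold and 4.37-fold higher. COX19 and ATP10 were 3.58-fold and 4.17-fold lower. In iron-sulfur cluster assembly 5 of 18 genes were at least 2-fold higher, among them YAH1, the mitochondrial ferredoxin (5955 and 22590), and 0 were lower.

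With this scaling, the respiratory enzymes themselves were at similar levels in both strains. Of the 41 nuclear genes for subunits of the respiratory chain and ATP synthase, 0 were past 2-fold in either direction, and the ratios ran from -0.66 to 0.84 around a median of 0.08. That median was 0.37 after subtracting the median of each gene's signal class, -0.32 with no scaling and -1.24 with ACT1 as the reference. CYT1, cytochrome c1, had 130000 in wild-type and 82210 in ccr4Δ cells, and QCR10 had 13750 and 24550. The 17 genes of the TCA cycle were also within 2-fold, with a median of 0.01, as were the 7 measured mitochondrially encoded genes, with a median of -0.01.

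**Figure D3:**
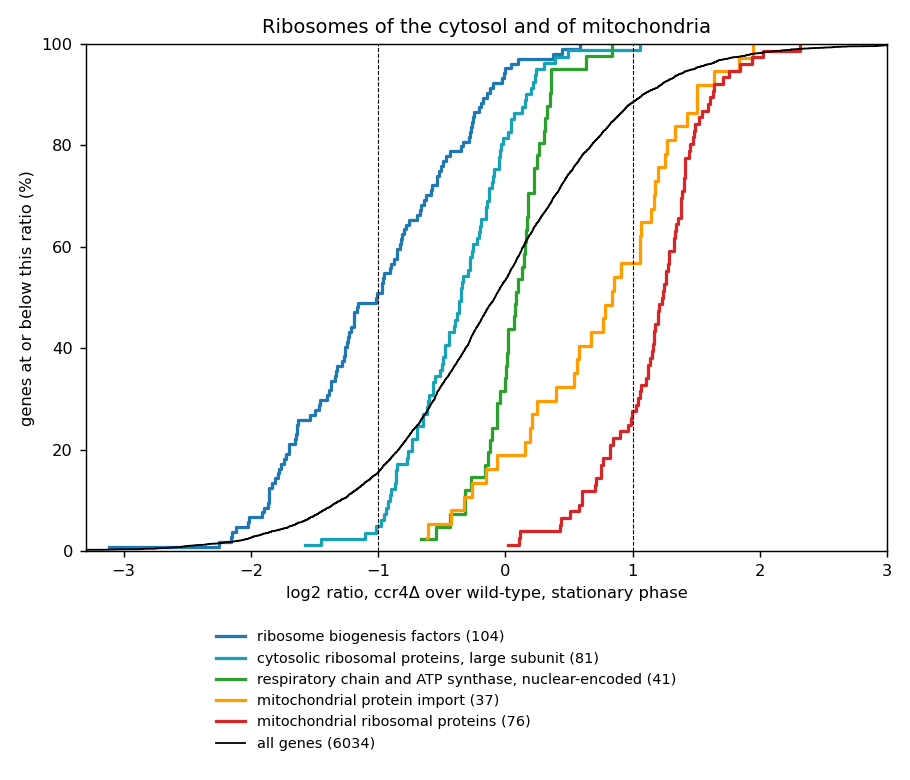
Percent of genes (y axis) at or below each log2 ratio of ccr4Δ over wild-type in stationary phase (x axis) for 5 lists and for all genes. The numbers of genes measured stand in parentheses and dashed lines mark 2-fold. Mitochondrial ribosomal proteins lie to the right of all genes, ribosome biogenesis factors to the left, and the respiratory chain stays between -0.66 and 0.84.

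Genes that build cytosolic ribosomes went the other way. Among 104 ribosome biogenesis factors, 53 were at least 2-fold lower, against 15.6% of all genes, and 0 were at least 2-fold higher. The median was -1.02, or -0.89 by length class. HAS1, an RNA helicase of both subunit pathways, was lowest, with 7164 in wild-type and 827 in ccr4Δ cells, 8.66-fold lower. NSR1, the yeast nucleolin, had 17240 and 3618, and the GTPases NOG1 and NOG2 were 4.06-fold and 4.34-fold lower. CBF5, the pseudouridine synthase of box H/ACA particles, had a log2 ratio of -0.01. RNA polymerases I and III, which make ribosomal and transfer RNA, had 9 of 22 subunit and regulator genes at least 2-fold lower and a median of -0.86. The 3 lowest were large subunits, RPA190 (5.06-fold, from 16020 to 3167) and RPA135 (3.79-fold) of polymerase I and RET1 (4.3-fold) of polymerase III. MAF1, the repressor of polymerase III, was 3.57-fold lower, and RRN3, which brings polymerase I to its promoter, had a log2 ratio of 0.68.

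Ribosomal proteins of the cytosol differed less. The medians were -0.35 for 81 genes of the large subunit and -0.34 for 57 of the small one, with 4 and 3 genes at least 2-fold lower and 1 and 0 higher. After subtracting the median of each gene's own class of wild-type signal, these medians were -0.09 and -0.12. Many of these genes are near-identical pairs whose probes may share signal. The same holds for other close copies named here, such as ENO1 and ENO2, SSB1 and SSB2, and IMD3 with its relatives. RPL3, a single gene, was 2.98-fold lower (38760 and 12980). SSB1 and SSB2, Hsp70 chaperones that sit on translating ribosomes, were 3.95-fold and 3.04-fold lower, in a list of chaperones whose median was 0.73.

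In the sulfate assimilation and methionine list 17 of 31 genes were at least 2-fold higher and 0 at least 2-fold lower, and the median was 1.17. MET17, the O-acetylhomoserine sulfhydrylase that fixes sulfide into an amino acid, had 4397 in wild-type and 61230 in ccr4Δ cells, 13.9-fold higher. MUP1, the high-affinity methionine permease, went from 10130 to 48250, 4.76-fold. Along the route from sulfate, the transporters SUL1 and SUL2 were 3.31-fold and 3.24-fold higher, MET3 (ATP sulfurylase) 3.22-fold, MET14 (APS kinase) 2.5-fold, MET16 (PAPS reductase) 3.62-fold, and MET5, a sulfite reductase subunit, 4.74-fold. MET6 (methionine synthase) and CYS3 (cystathionine gamma-lyase) were 3.79-fold and 4.21-fold higher. MET4, the activator of the pathway, had a log2 ratio of -0.73, and its DNA-binding partners MET32 and MET28 had 1.57 and 1.29.

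Amino acid biosynthesis genes under the activator Gcn4 were split, with 13 of 59 genes at least 2-fold higher, 6 lower and a median of 0.46. The histidine genes HIS5 and HIS4 led, with 4316 and 26720 for HIS5, 6.19-fold, and 5.69-fold for HIS4. HIS1, TRP4 and LYS9 were 3.5-fold, 4.49-fold and 3.35-fold higher. BAT2, the cytosolic branched-chain aminotransferase, was 6.78-fold lower (71990 and 10620), and the leucine genes LEU9 and LEU1 were 2.96-fold and 2.01-fold lower. By the strain list, the ccr4Δ strain carried a LEU2 marker from Candida glabrata that the wild-type strain lacked, and its part in the leucine genes was not tested. GCN4 itself had a log2 ratio of -0.47.

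Nitrogen catabolite genes, which take up and break down poor nitrogen sources, had 21 of 37 members at least 2-fold lower, 0 at least 2-fold higher and a median of -1.10. GLN1, glutamine synthetase, had 200900 in wild-type and 29790 in ccr4Δ cells, 6.74-fold lower. The proline genes PUT1 (proline oxidase) and PUT4 (proline permease) were 6.27-fold and 5.14-fold lower, and the ammonium permease MEP2 and the general permease GAP1 were 4.33-fold and 2.71-fold lower. Both NADP-dependent glutamate dehydrogenases were lower, GDH3 from 84970 to 13360 and GDH1 from 17640 to 3023. The activators GLN3 and GAT1 had log2 ratios of 0.01 and -0.38, and the repressors GZF3 and DAL80 were 3.9-fold and 3.11-fold lower. The 4 ASP3 genes, copies of 1 sequence, are read by probes that cannot be told apart and count as 4 of the 21. PTR2, the peptide transporter, was outside the list and 11.8-fold lower (34920 and 2966).

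Nucleotide synthesis was lower at the pyrimidine steps and at the GMP branch of purines. In the pyrimidine list 7 of 13 genes were at least 2-fold lower and 0 higher, with a median of -1.04. URA7 (CTP synthase) had 3545 in wild-type and 850 in ccr4Δ cells, 4.17-fold lower, and URA2, the first enzyme of the pathway, and the permease FUR4 were 3.75-fold and 3.93-fold lower. In the purine list 5 of 20 genes were at least 2-fold lower and 4 higher. IMD3 (IMP dehydrogenase) and GUA1 (GMP synthase) were 7.4-fold and 3.31-fold lower, and the phosphoribosyl pyrophosphate synthetases PRS3 and PRS1 6.16-fold and 3.27-fold lower. ADE17 and ADE12, the latter at the AMP branch, were 4.33-fold and 3.27-fold higher. By the strain list, the wild-type strain carried ADE2 behind the HO promoter and the ccr4Δ strain did not. The part of this in the purine genes was not tested.

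The phosphate regulon, which Pho4 switches on when phosphate is scarce, had the lowest median of the 84 lists, -1.33, and held the 3 lowest ratios of all genes not set aside. PHO89, the sodium-phosphate cotransporter, had 65180 in wild-type and 1155 in ccr4Δ cells, 56.5-fold lower, and its 2 spots gave log2 ratios of -5.79 and -5.85. GIT1, the glycerophosphoinositol transporter, went from 16070 to 326, 49.2-fold lower, and PHM6 from 14210 to 338, 42-fold lower. PHO84, the high-affinity phosphate transporter, was 7.18-fold lower, PHO5, the repressible acid phosphatase, 7.2-fold, SPL2, which acts on the low-affinity transporters, 11.3-fold, and PHO81, the inhibitor of the Pho80-Pho85 kinase, 5.83-fold. VTC3, VTC4 and VTC1 of the polyphosphate polymerase were 4.05-fold, 2.59-fold and 2.58-fold lower. In all, 13 of 23 members were at least 2-fold lower. The 1 list member that was at least 2-fold higher was PHO3, 7.74-fold at low signal (175 and 1357). It encodes the constitutive acid phosphatase and so stands apart from the genes switched on when phosphate is scarce. After subtracting the median of each gene's length class the median of the list was -0.90.

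A few metal genes stood out. FET4, a low-affinity iron transporter, was 8.08-fold lower (6855 and 848), FET3, the multicopper oxidase of high-affinity uptake, 4.22-fold, and HMX1, heme oxygenase, 3.34-fold. In the iron list 5 of 25 measured genes were at least 2-fold lower and 0 higher, a share near that of all genes. Of 16 zinc and copper genes, 3 were at least 2-fold lower, again near that of all genes, and 2 higher. The zinc activator ZAP1 and the transporters ZRT1 and ZRT2 were 4.16-fold, 2.15-fold and 2.8-fold lower. ZPS1, which zinc-poor medium induces, was on the other side, 7.51-fold higher (910 and 6838), as was CTR3, a copper transporter (3.56-fold). IZH4, a membrane protein of zinc homeostasis, was 15.6-fold lower (36860 and 2371).

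Drug efflux genes under the activators Pdr1 and Pdr3 had 10 of 19 members at least 2-fold lower, 0 at least 2-fold higher and a median of -1.15. The ABC transporter PDR5 had 31240 in wild-type and 2898 in ccr4Δ cells, 10.8-fold lower. The ABC transporters YOR1 and SNQ2 were 8.44-fold (56100 and 6646) and 6.33-fold lower, and RSB1, a sphingoid base translocator, 5.25-fold. PDR3 was 3.15-fold lower and PDR1 had a log2 ratio of -0.90. These genes were long, with a median of 2835 bases, and relative to genes of the same length class the median was -0.76.

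Among lipid genes, part of the fatty acid synthesis list was lower. FAS1 and FAS2, the 2 subunits of fatty acid synthase, were 7.11-fold (126800 and 17850) and 3.1-fold lower, ACC1, acetyl-CoA carboxylase, 3.68-fold, and the acyl-CoA synthetase FAA4 5.72-fold. OLE1, the desaturase, had 232700 and 260400, and TSC13, of fatty acid elongation, was 3.33-fold higher. Of 17 genes, 6 were at least 2-fold lower and 1 higher, and 8 were above 0. The median was -0.11, or 0.09 by length class. In ergosterol synthesis 9 of 26 genes were at least 2-fold lower, among them ERG25 (4.1-fold) and ERG5 (3.25-fold), and 1, ERG24, was higher (2.17-fold). FAT3, known for fatty acid uptake, had the fourth lowest ratio of all genes not set aside, from 17160 to 624, 27.5-fold lower.

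Cell wall genes were split. Of 43 genes for wall proteins and glucan enzymes, 15 were at least 2-fold lower and 5 higher, with a median of -0.16. CWP1, a mannoprotein of the wall, had 184500 in wild-type and 12760 in ccr4Δ cells, 14.5-fold lower. PST1 and the glucanosyltransferase GAS1 were 4.68-fold and 4.96-fold lower, KRE6, of beta-1,6-glucan synthesis, 4.67-fold, and FKS1, the beta-1,3-glucan synthase, 2.84-fold. The 5 higher genes were PIR1, a wall protein (8296 and 63870, 7.7-fold), the glucanosyltransferases GAS2 and GAS4 (3.17-fold and 2.88-fold, both at low signal), the protease gene YPS1 (2.36-fold) and UTR2, which links chitin to glucan (2.1-fold). In the Rho1 pathway, which answers to wall damage, 7 of 23 genes were at least 2-fold lower and 1 higher, with a median of -0.59, or -0.36 by length class. The MAP kinase SLT2 and its target RLM1 were 2.75-fold (66840 and 24280) and 2.88-fold lower, and the Rho1 exchange factor ROM2 2.1-fold. The sensor MID2 had a log2 ratio of -0.17.

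Genes of the end of mitosis and of the daughter cell were higher. Of 23 genes of the CLB2 cluster other than CLB1 and CLB2, which are transcribed at the end of G2, 9 were at least 2-fold higher and 0 at least 2-fold lower, with a median of 0.94. CHS2, the chitin synthase of the primary septum, had 715 in wild-type and 8185 in ccr4Δ cells, 11.4-fold higher. SWI5, the activator of M/G1 genes, was 6.43-fold higher (222 and 1425). HOF1, of the bud neck, was 4.03-fold higher, and TEM1, the GTPase of mitotic exit, 4.18-fold. Among 17 daughter cell and M/G1 genes, 8 were at least 2-fold higher and 0 lower. PIR1, given above, was among them, and EGT2, SCW11 and the chitinase gene CTS1, all of cell separation, were 4.59-fold, 3.02-fold and 2.33-fold higher. ASH1, which acts in the daughter nucleus, had -0.80. The 14 genes for septins and other cytokinesis proteins were all within 2-fold.

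Of the actin cytoskeleton list, 20 of 36 genes were at least 2-fold higher and 1 was lower, around a median of 1.07. The tropomyosins TPM1 and TPM2 were 4.2-fold (9674 and 40670) and 2.53-fold higher, ABP1, which binds actin in cortical patches, 4.01-fold, SRV2, which recycles actin monomers, 3.81-fold, and PFY1, profilin, 2.56-fold. ACT1 itself had 31120 and 77720. SCP1, an actin bundling protein, was 2.3-fold lower, and the formin BNI1 had -0.87. Tubulin, kinesin and spindle pole genes had 2 of 38 at least 2-fold higher and 7 lower, the latter near the share of all genes.

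In the chaperone list 10 of 30 genes were at least 2-fold higher and 2 lower. HSP78, of the mitochondrial matrix, had 28990 in wild-type and 89870 in ccr4Δ cells, 3.1-fold higher. SIS1, an Hsp40, and MDJ1, its mitochondrial counterpart, were 2.81-fold and 2.79-fold higher, and CUR1, which sorts misfolded proteins, 3.62-fold. The proteasome had a median of 0.48 with 4 of 33 subunit genes at least 2-fold higher, a share near that of all genes, and 0 lower. Of 31 regulators of stress and nutrient signals, 5 were at least 2-fold lower, a share near that of all genes, and 2 were higher. MSN4 and MSN2, activators of the general stress response, were 5.5-fold (23350 and 4242) and 3.27-fold lower, GIS1, an activator of stationary phase genes, 2.72-fold, and IRA2, which turns off Ras, 3.99-fold. MIG2, a repressor in the presence of glucose, was 3.93-fold higher (409 and 1609). In autophagy 5 of 32 genes were at least 2-fold higher and 5 lower, shares near those of all genes. Within this list ATG14 was at the top (5.99-fold) and ATG15 at the bottom (4.59-fold). ATG41, given below, was not in the list and had a higher ratio than ATG14.

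Other factors of mRNA decay were mostly within 2-fold. Of the 8 other subunits of the Ccr4-Not complex, CAF40 was 2.46-fold higher, CAF130 was 2.93-fold lower, and POP2, the other deadenylase, had a log2 ratio of 0.74. Among 17 decapping and decay factors, PAT1 was 2.15-fold higher and the helicase DHH1 2.92-fold lower (3772 and 1291). The poly(A)-binding protein gene PAB1 and PAN2, of the other cytoplasmic deadenylase, were both 2.08-fold lower. Of the PUF family of RNA-binding proteins, which bring Ccr4-Not to mRNAs, 3 of 6 genes were at least 2-fold lower and 0 higher. PUF4, PUF3 and PUF2 were 2.46-fold, 2.16-fold and 2.12-fold lower, while MPT5 and JSN1 had log2 ratios of 0.46 and 0.04. The median of the family was -0.87, or -0.56 by length class.

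Thiamine genes were higher in part, with 7 of 16 at least 2-fold higher and 1 lower. THI4, which makes the thiazole ring, had 394 in wild-type and 1446 in ccr4Δ cells, 3.67-fold higher. THI5, THI11 and THI13, near-identical genes of the pyrimidine ring whose probes may share signal, had log2 ratios of 1.56, 1.77 and 2.08, while THI7, the thiamine transporter, had -0.37.

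In the list of beta-oxidation and peroxisomes 6 of 37 genes were at least 2-fold lower and 1 higher, again a share near that of all genes. CTA1, the peroxisomal catalase, had 80110 in wild-type and 19860 in ccr4Δ cells, 4.03-fold lower. SPS19, a dienoyl-CoA reductase, and PXA1, of the transporter that brings fatty acids into peroxisomes, were 3.87-fold and 3.21-fold lower, and PEX21, of peroxisomal import, was 4.66-fold higher. Of 50 measured genes of meiosis and sporulation, 9 were at least 2-fold lower and 8 higher, shares near those of all genes. Most of the 50 were at low signal. IME2, the kinase that starts meiosis, was 5.13-fold lower (3090 and 602), and HOP2, of chromosome pairing, was 6.23-fold higher (32.8 and 204).

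Several of the genes with the most extreme ratios belonged to none of the 84 lists. ATG41, an autophagy protein, ranked 2 from the top of the genes not set aside, from 1979 to 28810, 14.6-fold. BNA3, a kynurenine aminotransferase, was 9.42-fold higher (1239 and 11670), NCW2, a wall protein, 8.95-fold, COQ8, of coenzyme Q synthesis, 7.27-fold, TMT1, a methyltransferase, 7.85-fold, and FSH3, a serine hydrolase, 7.6-fold. At the other end RIM4, an RNA-binding protein of meiosis, went from 29100 to 1515, 19.2-fold lower, and CSM4, which moves chromosomes in meiosis, from 5648 to 536, 10.5-fold. PLB2, a phospholipase B, was 8.71-fold lower, HPA2, an acetyltransferase, 7.27-fold, and FDH1, formate dehydrogenase, 8.46-fold at low signal (552 and 65.2).

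Besides CCR4, 10 genes were well above background in wild-type cells alone and 92 in ccr4Δ cells alone. The largest bound outside the set-aside genes was that of GAT4, a GATA factor, at least 6.84-fold higher in ccr4Δ cells, and DAN1, a wall protein of anaerobic cells, was at least 5.5-fold higher. In the other direction, YKR032W had a bound of 3.5-fold. For such bounds the dim side was set at the lowest signal well above background on its array, or at the gene's own signal where that was higher.

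The log phase comparison of the same strains used 2 other arrays, which lay on different slides, and gave 321 genes at least 2-fold higher (5.57% of 5765 measured) and 261 at least 2-fold lower (4.53%). Of 5756 genes measured on all 4 arrays, 99 were at least 2-fold higher in both phases, 15.1% of those higher in stationary phase and 30.8% of those higher in log phase. In both phases 115 were at least 2-fold lower, 12.8% of the stationary and 44.6% of the log phase genes. At least 2-fold in opposite directions were 13 genes that were higher in stationary phase and 36 that were lower. The phosphate regulon was low in both, with medians of -1.33 in stationary and -1.37 in log phase, though PHO5 was 7.2-fold lower in stationary and 75.3-fold lower in log phase, and PHO89 56.5-fold and 2.82-fold. Mitochondrial ribosomal proteins had medians of 1.23 and 0.61. Sulfate assimilation had 1.17 in stationary and -0.12 in log phase, ribosome biogenesis -1.02 and -0.19, and drug efflux -1.15 and -0.31. Single genes show where the stationary levels lay relative to log phase. PDC5 levels in log phase were 14020 in wild-type and 17680 in ccr4Δ cells, beside 703 and 26840 later. The MET17 levels were 48770 and 33450 in log phase, beside 4397 and 61230. NOG2, which was low in stationary ccr4Δ cells, had 11570 and 7540 in log phase, beside 10750 and 2476. ADY2 was not well above background in log phase wild-type cells, and its stationary levels were 73180 and 4412. The difference between the phases was not tested.

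**Figure D4:**
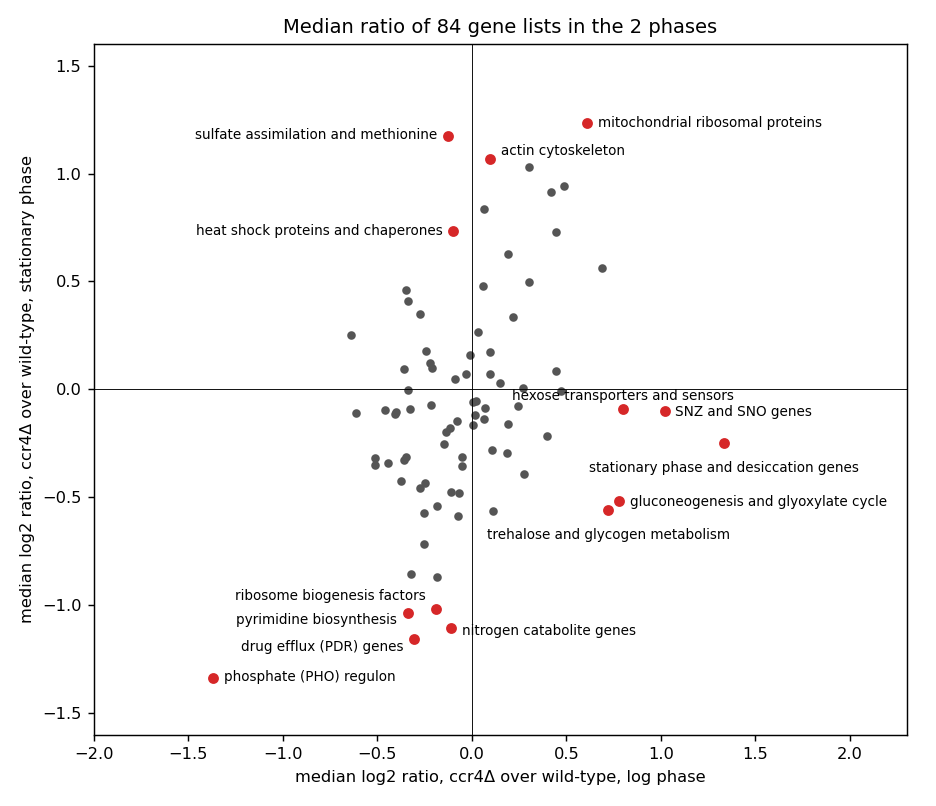
Median log2 ratio of ccr4Δ over wild-type of 84 gene lists in log phase (x axis) and in stationary phase (y axis), 1 point per list, with 14 lists named in red. The phosphate regulon is low in both phases, and glycogen, glyoxylate and stationary phase genes lie to the right of 0 and below it.

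The ccr4Δ pbp1Δ double mutant in stationary phase gave a further level for each gene. These cells also lacked Pbp1, a partner of the poly(A)-binding protein. Their mating type and markers are not in the strain list, so a part of these cannot be told apart from that of pbp1Δ. Some genes that were high in ccr4Δ cells stood near the wild-type level in the double mutant. MET17 had 4397 in wild-type, 61230 in ccr4Δ and 4840 in ccr4Δ pbp1Δ cells, MUP1 10130, 48250 and 9288, and EGT2 4430, 20330 and 5822. Others stood near the ccr4Δ level, such as MRPL32 with 2012, 9999 and 9303, SWI5 with 222, 1425 and 1624, and TPM1 with 9674, 40670 and 45230. Among low genes, PDR5 had 31240, 2898 and 3790, HAS1 7164, 827 and 393, and PHO84 137300, 19120 and 47230. PDC5 lay between, with 703, 26840 and 7387. These are levels of single arrays, and their differences from ccr4Δ were not tested.

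**Figure D5:**
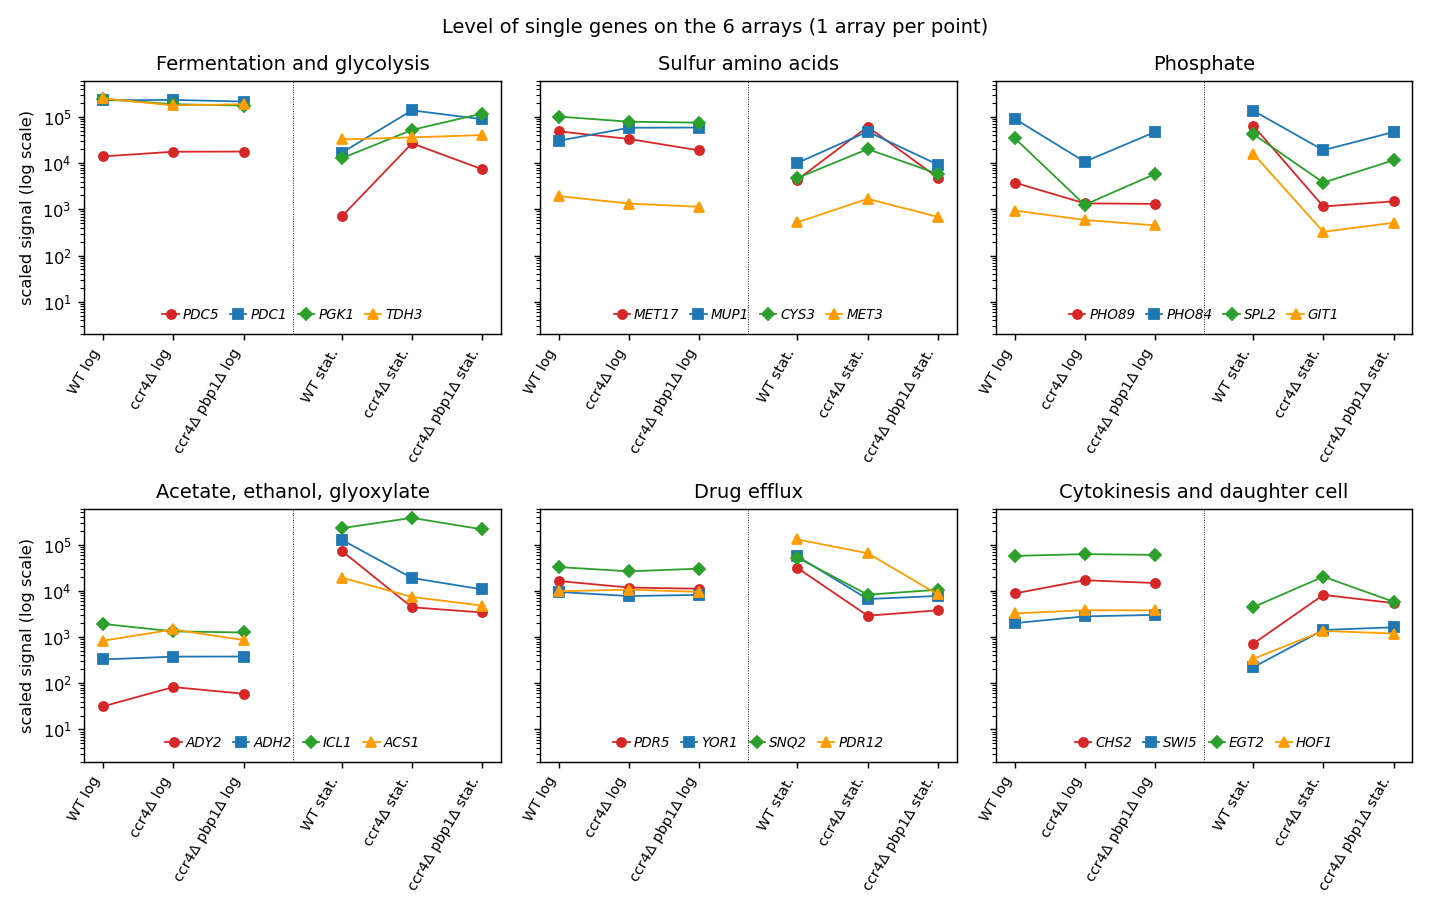
Scaled signal (y axis, log scale) of 24 genes on the 6 arrays, with WT for wild-type and stat. for stationary phase, 1 array per point, and lines that join the 3 strains of a phase. ADY2 was not well above background in log phase wild-type cells. In stationary phase PDC5 and MET17 are high in ccr4Δ cells, and the phosphate and drug efflux genes drawn are high in wild-type cells.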

How the data were processed

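RNA of 6 samples of yeast grown in YPD at 28 °C was labelled with 1 dye (100 ng of total RNA). It was hybridised to Agilent arrays of 12512 gene spots. Whether the log and stationary samples of a strain came from 1 culture is not given in the labels. How long the stationary cultures had grown is not given in the sources used here. The deposited intensities were the processed signals of Feature Extraction 11.0.1.1, background-subtracted by the authors' scanner software, and the array design named the build sacCer2. A deposited table of normalized signal intensities for all arrays, with equal medians (5438) and 6256 of 6316 rows matched to a probe, served as an alternative, and its ratio had a Pearson r of 0.988 with the main ratio across genes.

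Here log2 of the processed signal minus the 75th percentile of non-control spots on each array was averaged over the 2 spots of a probe and over the probes of a gene (29 genes had several), and the ratio is ccr4Δ minus wild-type. A gene was measured where well above background on both arrays. The 75th percentile of raw signal was 14100 and 10690, 97.1% and 98.4% of probes were well above background, and no spot was saturated. Depth has no meaning for arrays, and their number limits the precision. Gene symbols and lengths came from a RefSeq table that held 5720 of the 6225 systematic names. No test was made, and the limit of 2-fold is a description.

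Members and lists were chosen with earlier results of these data known. Genes named were members of the lists, the 25 highest and 25 lowest ratios outside the set-aside genes, and the 10 largest bounds in each direction. Alternatives were the scaling, background correction (normexp in limma 3.58.1, offset 50), spots, probes, the filter and the fold limit. The calculation (Python 3.11.15, R 4.3.3) was tested on simulated data.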

Additional observations from a re-analysis of the deposited data

Results flagged for a closer look

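The 7 results below had opposite signs in stationary and in log phase, in ratios of ccr4Δ over wild-type from separate pairs of arrays. They are the genes among the 25 highest and 25 lowest in stationary phase that were measured on all 4 arrays and at least 2-fold the other way in log phase, and those of the 84 lists whose medians lay at least 1 apart on the log2 scale. Over all genes, 13 that were at least 2-fold higher and 36 that were at least 2-fold lower in stationary phase were at least 2-fold the other way in log phase. With 1 array per condition the difference between the phases was not tested. All values are log2 ratios. YOR385W, a gene of no known function here, had 2.97 in stationary and -1.18 in log phase. RIM4, of meiosis, had -4.26 and 1.47.

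The other 5 were medians of lists. Genes of the stationary phase and desiccation list had -0.25 in stationary and 1.34 in log phase, where 14 of the 20 measured members were at least 2-fold higher, against 5.57% of all genes. Trehalose and glycogen genes had -0.56 and 0.72, gluconeogenesis and glyoxylate genes -0.52 and 0.78, and the SNZ and SNO genes, which act in vitamin B6 synthesis, -0.10 and 1.02. Sulfate assimilation and methionine genes had 1.17 in stationary and -0.12 in log phase.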

How the results depend on the processing

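Counts moved most with the scaling. With no scaling, 340 genes were at least 2-fold higher and 1712 lower, and with ACT1 as the reference 58 and 4063. At a limit of 1.5-fold the counts were 1363 and 1757, and at 4-fold 108 and 162. With ACT1 as the reference the median log2 ratio turned to -0.087 for mitochondrial ribosomal proteins, -0.29 for mitochondrial translation factors and tRNA synthetases, -0.15 for sulfate assimilation and methionine, -0.25 for the actin cytoskeleton and -0.022 for coenzyme Q synthesis. The ratio turned to -0.023 for CAF40, -0.10 for CTS1, -0.20 for ERG24, -0.033 for MET28, -0.21 for PAT1, -0.24 for PDC6, -0.25 for UTR2 and -0.083 for YPS1. This follows from the subtraction of the ratio of ACT1. Of the 9 lists with medians past 1 or -1 among the 84, the direction was kept by 9 in each other alternative, and by 5 with ACT1 as the reference. The median stayed past 1 or -1 for 9 with normexp background correction, either spot alone, the brightest probe or no filter on dim probes, for 7 with median scaling, quantile normalization or the authors' processed table, and for 5 with no scaling. It stayed for 6 after subtracting the median of each length class and for 5 after subtracting that of each signal class, both chosen after seeing the data. No paired analysis was possible because each condition had 1 array, and no replicate could be left out. A count of promoter motifs was not run for lack of sequences, and gene length stood in for protein length.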

Other observations

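2 further groups were chosen after their values were seen, and their medians are descriptions. All 11 genes of coenzyme Q synthesis, which make the lipid that carries electrons in the respiratory chain, were above 0 in stationary phase, and 9 were at least 2-fold higher in ccr4Δ cells, with a median log2 ratio of 1.30. COQ8, an atypical kinase, had a scaled signal of 371 in wild-type and 2701 in ccr4Δ cells, 7.27-fold higher. COQ6, a monooxygenase, had 2039 and 11290, and COQ3, a methyltransferase, 1745 and 5988.

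The 3 genes of the ammonium export family were each at least 2-fold lower. ADY2 stood at 73180 in wild-type and 4412 in ccr4Δ cells, ATO2 at 33080 and 6039, and ATO3 at 19540 and 6882. ADY2 is in the gluconeogenesis list too.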
